A study of Homo sapiens with 6 samples.

Results

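Progression from G1 into S phase is driven by cyclin-dependent kinases (CDKs) and their cyclins, and 10 genes of this system were followed after knockdown of CCN3 in Hs578T cells. They are the D-type cyclins CCND1, CCND2 and CCND3, the E-type cyclins CCNE1 and CCNE2, the kinases CDK4 and CDK6, and the inhibitors CDKN1A, CDKN1B and CDKN2A. They were chosen by gene symbol from the 46427 genes of the count table, all 10 were found there, and 9 passed the filter on low counts that left 17419 genes for testing. CCND2 was the gene that did not pass. Hs578T is a human triple-negative breast cancer cell line, and both groups are stable lines of it made with a retroviral vector and selected with puromycin. The control line carried a control shRNA (shCTRL, 3 samples) and the knockdown line carried shRNA #2 against CCN3 (shCCN3, 3 samples), so that 1 shRNA and 1 line per condition were sequenced. The methods speak of selected clones without saying how many cells founded each line. CCN3 is a secreted matricellular protein, and the comparison asks which transcripts differ when less of it is made.

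In G1, mitogens raise D-type cyclins, which bind CDK4 or CDK6 and phosphorylate the retinoblastoma protein. This frees E2F transcription factors, which switch on E-type cyclins and genes of DNA replication. The INK4 inhibitors, such as p16 from CDKN2A, bind CDK4 and CDK6 alone, and the CIP/KIP inhibitors p21 (CDKN1A) and p27 (CDKN1B) act on cyclin-CDK complexes, above all on those of CDK2. In breast cancer, cyclin D1 is often abundant and CDK4 and CDK6 are drug targets.

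The libraries held between 56159110 and 68393177 counts, and levels are given in CPM, the counts of a gene relative to the total of its library after scaling by TMM factors. The targeted gene matched the labels, with CCN3 mRNA at 101 ± 2.43 CPM in shCTRL against 47.0 ± 0.469 CPM with the CCN3 shRNA (SD, n = 3 each). The mesenchymal markers VIM, FN1, ZEB1, CD44, AXL and SPARC summed to 14160 to 14330 CPM in shCTRL and 13420 to 13630 CPM in shCCN3 libraries. VIM gave the largest part, at 7778 CPM in shCTRL and 7064 CPM in shCCN3 cells. CD44 fell by 0.25 on the log2 scale (adjusted p = 0.00429 from edgeR), and the other 5 did not pass the test. In every library, 3 of 6 luminal markers, ESR1, EPCAM and CDH1, and 4 of 5 markers of blood and endothelial cells stayed under 1 CPM. The other luminal markers were detected, with ERBB2 at 77.9 CPM in shCTRL cells. KRT8 measured 17.68, 20.98 and 21.34 CPM in shCTRL and 13.52, 14.72 and 13.59 CPM in shCCN3 libraries. KRT8 fell by 0.52 on the log2 scale (adjusted p = 0.00221 from edgeR). PGR averaged 2.86 CPM in shCTRL and 3.80 CPM in shCCN3 cells and did not pass the test. PECAM1, an endothelial marker, averaged 3.57 CPM in shCTRL and 3.43 CPM in shCCN3 cells and did not pass either. Within each group the libraries differed beyond counting noise (chi-square over its degrees of freedom from 6.75 to 42.5), most of all shCCN3 replicate 2 from the other shCCN3 libraries. The labels number the samples as replicates, and the series calls them biological, without further detail of the cultures, so p-values measure only the spread between these samples.

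Of the 9 genes tested, 4 rose in shCCN3 cells, namely CDK6, CCNE1, CDKN1A and CCND1, and none fell. For comparison, 33.4% of all genes tested were called at an adjusted p under 0.05, 16.2% as higher and 17.3% as lower. P-values came from the quasi-likelihood F-test of edgeR, adjusted by the method of Benjamini and Hochberg (BH), and SE is the standard error. The median log2 fold change of the 9 genes was 0.21, beside 0.01 for all genes tested. The groups did not overlap for 5 of the 9 genes, each higher in shCCN3 cells, the fifth being CDKN1B. Among all genes tested the groups did not overlap for 46.3%, with 22.7% higher and 23.6% lower. With each library left out in turn, 3 or 4 of the genes were called, and CCND1 was the one lost.

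**Figure D1:**
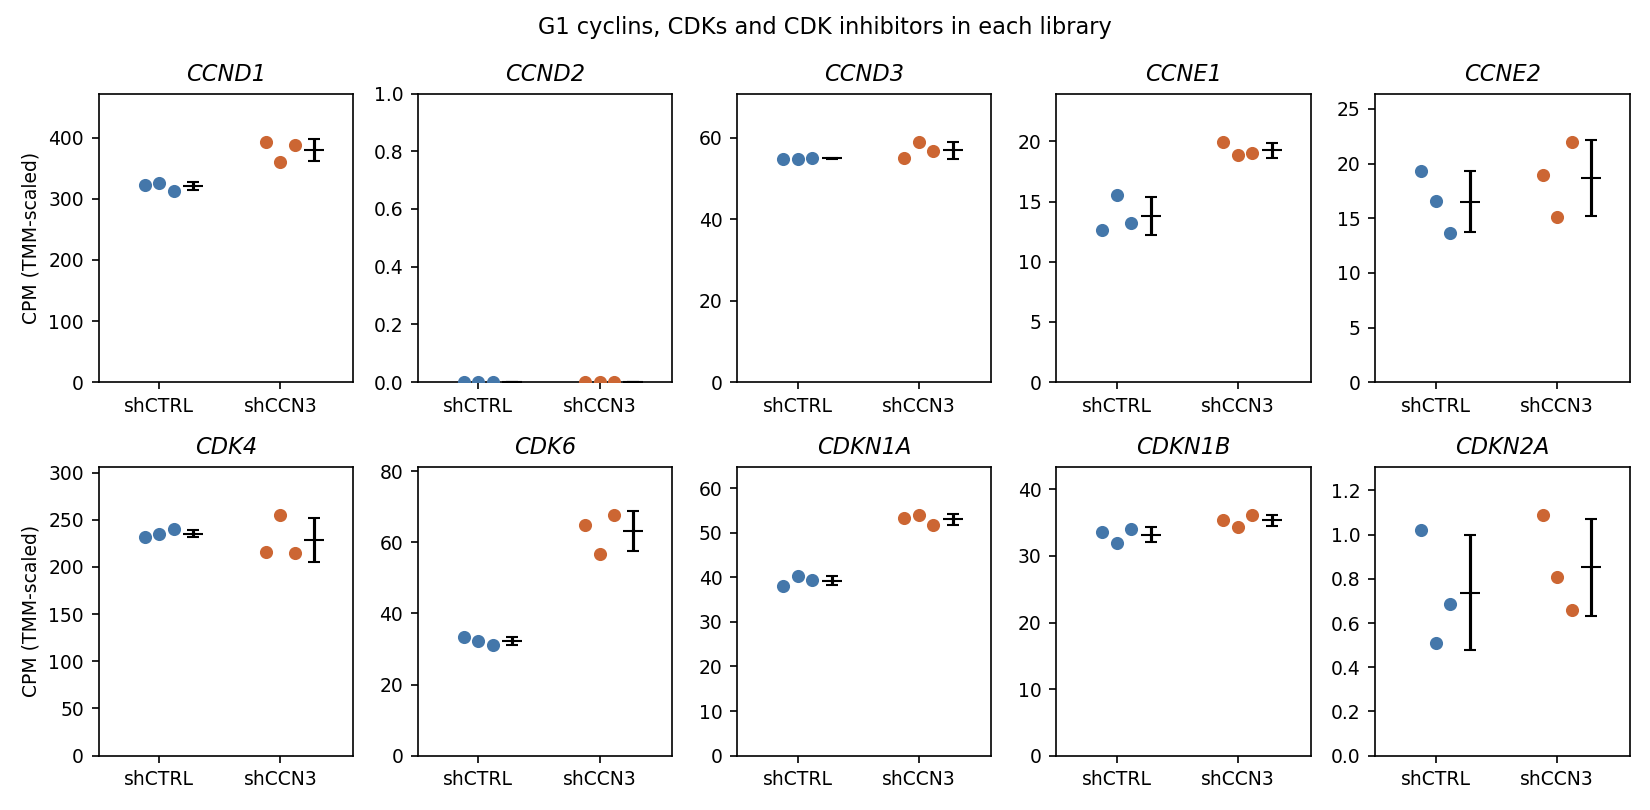
Level of each of the 10 genes in each library, in TMM-scaled CPM on a linear axis from 0, with shCTRL in blue and shCCN3 in orange. Points are libraries, and the black mark beside them is the mean with the SD (n = 3). The shCCN3 libraries lie above all shCTRL libraries for CDK6, CCNE1, CDKN1A, CCND1 and, by a small margin, CDKN1B, and CCND2 is at 0 throughout.

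The regulatory sequence just upstream of the genes is shown for 3 that rose, CDK6, CCNE1 and CDKN1A, and for CDK4, the close relative of CDK6 that was not called. Each run is the 250 bases before the annotated start of transcription, 5′ to 3′ on the strand of the gene, from RefSeq on GRCh38.p14. Capitals mark GC boxes, GGGCGG or CCGCCC on the other strand, and E-boxes, CACGTG. The regions are chr7:92836574-92836823 for CDK6 on the minus strand, chr19:29811741-29811990 for CCNE1 on the plus strand, chr6:36678464-36678713 for CDKN1A on the plus strand and chr12:57752311-57752560 for CDK4 on the minus strand. The CDKN1A window precedes a start that lies within the annotated span of the gene, and the others lie just outside the span.
CDK6: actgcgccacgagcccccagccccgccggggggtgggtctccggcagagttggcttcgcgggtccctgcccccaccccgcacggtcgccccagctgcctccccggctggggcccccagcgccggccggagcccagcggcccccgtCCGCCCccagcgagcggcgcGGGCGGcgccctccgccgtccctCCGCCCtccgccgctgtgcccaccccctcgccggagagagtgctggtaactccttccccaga
CCNE1: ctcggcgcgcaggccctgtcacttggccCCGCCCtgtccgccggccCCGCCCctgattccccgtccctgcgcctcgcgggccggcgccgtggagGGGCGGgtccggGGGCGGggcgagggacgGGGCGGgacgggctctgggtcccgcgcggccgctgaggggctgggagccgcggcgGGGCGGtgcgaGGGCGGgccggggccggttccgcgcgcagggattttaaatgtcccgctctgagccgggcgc
CDKN1A: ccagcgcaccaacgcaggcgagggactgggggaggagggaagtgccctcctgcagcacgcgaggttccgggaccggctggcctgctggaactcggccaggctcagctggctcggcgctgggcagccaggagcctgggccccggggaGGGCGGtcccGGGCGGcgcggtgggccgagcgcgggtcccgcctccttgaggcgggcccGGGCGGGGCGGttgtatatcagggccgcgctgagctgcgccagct
CDK4: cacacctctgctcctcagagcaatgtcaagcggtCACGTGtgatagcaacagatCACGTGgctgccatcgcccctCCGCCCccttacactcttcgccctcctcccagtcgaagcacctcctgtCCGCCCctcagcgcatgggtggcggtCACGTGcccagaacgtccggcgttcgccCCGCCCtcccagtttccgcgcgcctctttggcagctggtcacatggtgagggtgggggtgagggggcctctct

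The window of CDK6 holds 3 GC boxes, that of CCNE1 7, that of CDKN1A 4, with overlapping boxes counted separately, and that of CDK4 3. Of the 35116 windows of this length in the table, 42.6% hold a GC box, so that motif is common. The median GC content of all windows was 58%, and it was 80.0% for CDK6, 81.2% for CCNE1, 76.4% for CDKN1A and 65.6% for CDK4. An E-box, the core motif bound by MYC with MAX, was found 3 times in the CDK4 window and in none of the other windows shown, and 6.34% of all windows hold one. The table gave 11 windows for 7 of the 10 genes, CCND3, CCNE1, CDK4, CDK6, CDKN1A, CDKN1B and CDKN2A. For 8 of the 11, the first bases after the start were found in a GENCODE transcript of the gene, and for the others they were not. None of the 11 held the E2F motifs TTTGGCGC, TTTCGCGC or TTTCCCGC, which 2.32% of all windows hold in either orientation. The CRE motif TGACGTCA (1.65% of all windows), the TCF/LEF motifs CTTTGAT (2.26%) and CTTTGTT (4.5%), and the AP-1 motif TGAGTCA or its reverse complement TGACTCA (4.2%) were also found in none of them. The shorter motif TGACGTNN was counted only where its bases were not the full CRE. It is present in 5.48% of all windows and occurred in 1 of the 11, another window of CDK6.

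Among the kinases, CDK6 rose and CDK4 did not pass the test. CDK6 measured 33.2, 32.2 and 31.1 CPM in the 3 shCTRL libraries and 64.9, 56.8 and 67.6 CPM in the 3 shCCN3 libraries. Every shCCN3 library was well above every shCTRL library, and replicate 2 was the lowest of the shCCN3 libraries. The log2 fold change was 0.97 (SE 0.078, BH-adjusted p = 1.9e-05, edgeR), a 1.96-fold rise, and 5.21% of all genes tested had a higher one. CDK6 lies on chromosome 7 from 92604921 to 92836573 (GRCh38). On that chromosome 697 of the 821 tested genes were lower in shCCN3 cells, with a median of -0.43 on the log2 scale, and the 24 tested genes nearest to CDK6 had a median of -0.38. CDK6 was thus higher by 1.36 on the log2 scale than the median of its neighbours, and 2 of the 24 had a higher value.

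CDK4, which acts with D-type cyclins as CDK6 does, measured 232, 235 and 240 CPM in shCTRL and 215, 255 and 215 CPM in shCCN3 libraries. The groups overlapped, since shCCN3 replicate 2 was above and the other shCCN3 libraries were below all shCTRL libraries. The log2 fold change was -0.04 (SE 0.075, BH-adjusted p = 0.701, edgeR), and 2 standard errors on either side span -0.19 to 0.11. Without shCCN3 replicate 2 it was -0.13 (BH-adjusted p = 0.0638, edgeR), and without shCCN3 replicate 1 or 3 it was -0.0029 or -0.0018. Reads of CDK4 may include some of TSPAN31, a gene on the opposite strand with overlapping exons and at most 1457 counts in a library, since the counting is not stated to use strand.

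The ratio of CDK4 to CDK6 counts within a library does not depend on the scaling between libraries. Its log2 was 2.80, 2.86 and 2.95 in shCTRL and 1.73, 2.17 and 1.67 in shCCN3 libraries, a difference of -1.02 (SE 0.162). By exact permutation p was 0.1 (two-sided), the smallest that 3 against 3 allows, and 0.133 when adjusted over 4 such ratios. Per kilobase of exon, CDK6 made up 2.36% ± 0.118 of the summed CDK4 and CDK6 level in shCTRL and 4.71% ± 0.801 in shCCN3 cells (SD, n = 3 each), so CDK4 mRNA remained the main form in both lines.

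Of the D-type cyclins, CCND1 rose, CCND3 did not pass the test and CCND2 was not detected. CCND1 measured 323, 327 and 313 CPM in shCTRL and 393, 359 and 388 CPM in shCCN3 libraries, with no overlap. The rise was small, a log2 fold change of 0.24 (SE 0.058, BH-adjusted p = 0.0102, edgeR) or 1.18-fold, and 24.1% of all genes tested had a higher value. Without shCCN3 replicate 1, the BH-adjusted p (edgeR) was 0.0512. CCND1 lies on chromosome 11 from 69641156 to 69654474, and the 24 nearest tested genes had a median log2 fold change of 0.01. LTO1, on the opposite strand, overlaps exons of CCND1 and had at most 1192 counts in a library.

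CCND3 measured 54.9, 54.9 and 55.1 CPM in shCTRL and 55.0, 59.1 and 56.7 CPM in shCCN3 libraries. The groups overlapped, and the log2 fold change of 0.05 (SE 0.058, BH-adjusted p = 0.549, edgeR) spans -0.06 to 0.17 with 2 standard errors on either side. CCND3 lies on chromosome 6, whose 891 tested genes moved by a median of 0.34, and its 24 nearest tested genes had a median of 0.45, with 21 of them above CCND3. The log2 ratio of CCND1 to CCND3 was 2.56, 2.57 and 2.51 in shCTRL and 2.84, 2.60 and 2.77 in shCCN3 libraries, a difference of 0.19 (SE 0.072, exact permutation p = 0.1, two-sided). Per kilobase of exon, CCND1 gave 83.9% ± 0.325 of D-type cyclin mRNA in shCTRL and 85.6% ± 1.04 in shCCN3 cells (SD, n = 3 each).

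CCND2 had 0 counts in all 6 libraries. At this depth a count of 0 allows up to 0.0435 to 0.0540 CPM per library (3 counts, counting error only), far below the other cyclins. AC008012.1, a gene on the same strand, overlaps exons of CCND2, and how reads shared by both were counted is not stated.

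Of the E-type cyclins, which activate CDK2 at entry into S phase, CCNE1 rose. It measured 12.6, 15.6 and 13.2 CPM in shCTRL and 19.99, 18.84 and 19.01 CPM in shCCN3 libraries. The groups were clearly apart, and the log2 fold change was 0.48 (SE 0.093, BH-adjusted p = 0.00345, edgeR), a 1.40-fold rise. CCNE1 lies on chromosome 19 from 29811991 to 29824312, and the 24 nearest tested genes had a median log2 fold change of 0.07.

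CCNE2 measured 19.3, 16.6 and 13.7 CPM in shCTRL and 18.96, 15.12 and 22.01 CPM in shCCN3 libraries. The libraries of each group were widely spread and the groups overlapped. Its log2 fold change was 0.18 (SE 0.155, BH-adjusted p = 0.42, edgeR), and 2 standard errors on either side span -0.13 to 0.49, which includes the value of CCNE1. It moved with single libraries, to 0.30 without shCTRL replicate 1, 0.06 without shCTRL replicate 3, 0.31 without shCCN3 replicate 2 and 0.05 without shCCN3 replicate 3, and passed the test in none of these fits. The log2 ratio of CCNE1 to CCNE2 differed by 0.31 between the groups (SE 0.236), with an exact permutation p of 0.3 (two-sided), so these libraries do not separate the E-type cyclins. The difference was 0.13 without shCTRL replicate 1 and 0.18 without shCCN3 replicate 2. INTS8 overlaps exons of CCNE2 on the opposite strand and had up to 7629 counts in a library, more than CCNE2. The values of CCNE2 are thus uncertain if strand was not used in counting. INTS8 had a log2 fold change of 0.18 (BH-adjusted p = 0.056, edgeR), and its part in the value of CCNE2 was not tested.

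Among the inhibitors, CDKN1A rose, and neither CDKN1B nor CDKN2A passed the test. CDKN1A, which encodes p21, measured 38.1, 40.4 and 39.4 CPM in shCTRL and 53.3, 53.9 and 51.7 CPM in shCCN3 libraries. The spread within each group was small beside the gap, with a log2 fold change of 0.43 (SE 0.059, BH-adjusted p = 0.000509, edgeR), a 1.35-fold rise. CDKN1A lies on chromosome 6 from 36676463 to 36687332. Its 24 nearest tested genes moved by a median of 0.46 on the log2 scale, and 12 of them were above CDKN1A, so its rise was of the size typical for its neighbours. The part of the chromosomal shift in the rise of CDKN1A was not tested.

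CDKN1B, which encodes p27, measured 33.6, 32.0 and 34.1 CPM in shCTRL and 35.5, 34.4 and 36.1 CPM in shCCN3 libraries. The shCCN3 libraries were all higher by a narrow margin, and the log2 fold change was 0.09 (SE 0.063, BH-adjusted p = 0.314, edgeR). The log2 ratio of CDKN1A to CDKN1B was 0.18, 0.33 and 0.21 in shCTRL and 0.59, 0.65 and 0.52 in shCCN3 libraries, a difference of 0.34 (SE 0.060, exact permutation p = 0.1, two-sided).

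CDKN2A, which encodes p16 and, from another reading frame, p14ARF, was detected at a low level. It had 70, 32 and 46 counts in shCTRL and 75, 45 and 42 counts in shCCN3 libraries. The groups overlapped, and the log2 fold change of 0.21 had a standard error of 0.310 (adjusted p = 0.659 from the edgeR test). Its exons overlap CDKN2B-AS1, a noncoding gene on the opposite strand with up to 335 counts in a library, so the few counts of CDKN2A are uncertain. Per kilobase of exon, CDKN2A gave 0.824% ± 0.294 of the summed level of the 3 inhibitors in shCTRL cells and 0.777% ± 0.194 in shCCN3 cells (SD, n = 3 each).

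**Figure D2:**
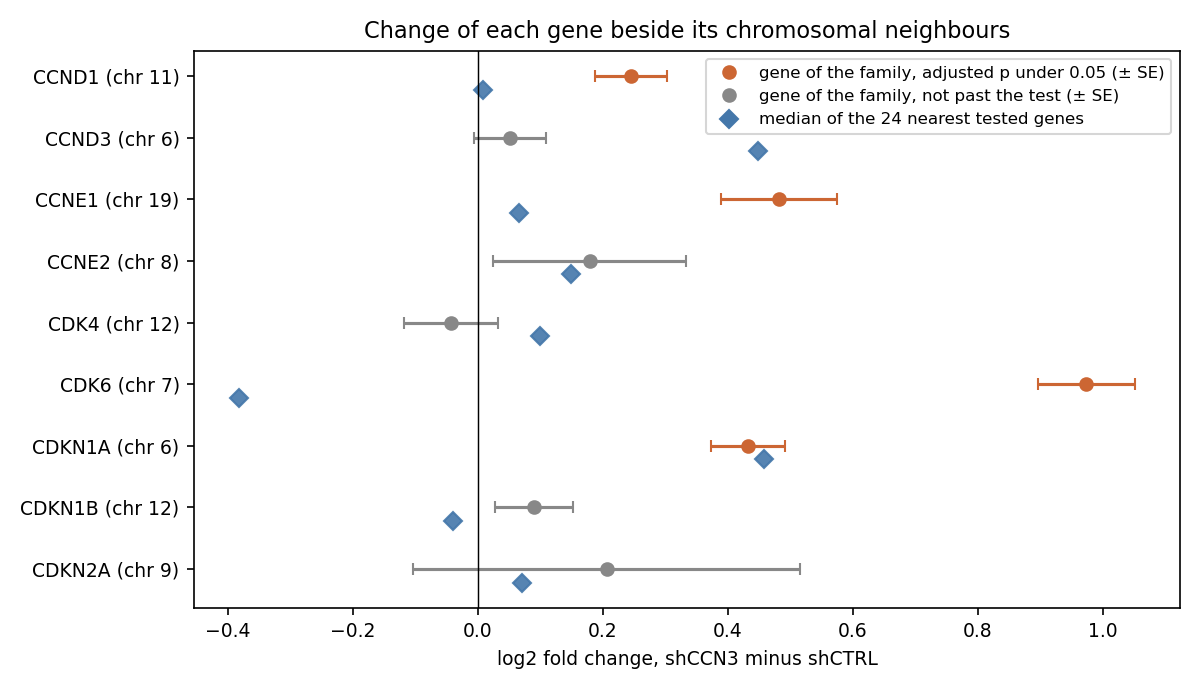
Log2 fold change (shCCN3 minus shCTRL) of each of the 9 genes tested, with its standard error, in orange where the adjusted p from edgeR was under 0.05 and in gray otherwise. Blue diamonds give the median log2 fold change of the 24 tested genes nearest to each gene. CDK6 lies far to the right of its neighbours at -0.38, CDKN1A lies on the median of its neighbours at 0.46, and CCND3 lies to the left of its own at 0.45.

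Per kilobase of exon, CDK4 was the highest of the 10 genes in shCTRL cells, at 113 ± 2.02 CPM per kilobase (SD, n = 3), followed by CCND1 at 72.8 ± 1.59. Below them came CDKN1A (15.7), CCND3 (13.9) and CDKN1B (12.5), then CCNE1 (6.65), CCNE2 (4.82), CDK6 (2.74), CDKN2A (0.234) and CCND2 at 0. In shCTRL cells no neighbours in this order overlapped in their libraries. The order of the means was the same in shCCN3 cells, but there CDK6, at 5.38 ± 0.480, could not be told apart from CCNE2, at 5.45 ± 1.01 CPM per kilobase (SD, n = 3 each). These levels rest on the summed exon length of GENCODE release 29, which for CDK6 is 11729 bases, and would shift with the transcript forms in use.

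Other G1 regulators were read from a list of 37 genes, of which 35 were tested. Of these, 7 rose, 6 fell and 22 did not pass the test, with a median log2 fold change of 0.03, and 37.1% were called beside 33.4% of all genes. These counts depend on single libraries, with 7 genes called without shCTRL replicate 2 and 22 without shCCN3 replicate 2. Among all genes, the number called moved in the same fits from 5825 to 4181 and 7229. CDKN2B, the INK4 inhibitor p15, rose most, by 1.03 on the log2 scale, from 10.7 ± 0.298 to 21.9 ± 0.517 CPM (SD, n = 3 each) (SE 0.072, BH-adjusted p = 8.27e-06, edgeR). E2F3, a transcription factor of the G1/S transition, rose with a log2 fold change of 0.55, and lies on chromosome 6. CUL1, the scaffold of the ubiquitin ligases that degrade cyclin E and p27, fell by 0.52 on the log2 scale, and lies on chromosome 7. CDK2, RB1 and E2F1 had log2 fold changes of 0.12, 0.08 and -0.11 (BH-adjusted p = 0.183, 0.669 and 0.351, edgeR). Without shCCN3 replicate 2, CDK2 stood at 0.16 and E2F1 at -0.18, and both passed the test (BH-adjusted p = 0.048 and 0.0331, edgeR).

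CDKN2B and CDKN2A are neighbours on chromosome 9, and the surrounding genes did not move as a block. Of 8 genes listed there, 6 were tested. CDKN2B and ELAVL2 rose, IFNE fell, and MTAP, KLHL9 and CDKN2B-AS1 did not pass the test. Thus 3 of the 6 were called, beside 33.4% of all genes tested, 16.2% as higher and 17.3% as lower. ELAVL2 encodes an RNA-binding protein and had a log2 fold change of 0.71, and IFNE encodes an interferon and had one of -1.17. MTAP, close to CDKN2A, stood at 30.4 ± 1.39 CPM in the control line and 29.7 ± 1.71 CPM in the other (SD, n = 3 each). DMRTA1 had 0 counts in each shCTRL library and 20, 8 and 22 counts in the shCCN3 libraries, too few for the filter, and CDKN2A-DT had 0 counts throughout.

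Upstream of the cell cycle genes, 31 regulators were listed and 29 tested, of which 9 rose, 4 fell and 16 did not pass the test, with a median log2 fold change of 0.10, and 44.8% were called beside 33.4% of all genes. MYC, a transcription factor that drives G1 progression, rose by 0.53 on the log2 scale, from 47.5 ± 2.51 to 68.6 ± 5.29 CPM (SD, n = 3 each) (SE 0.075, BH-adjusted p = 0.000593, edgeR). FOXO1, ETS1 and TP63, which encode transcription factors, had log2 fold changes of 0.91, 0.88 and 0.76 and rose as well.

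Downstream, the E2F targets changed in both directions. Of 22 tested, 7 rose, 5 fell and 10 did not pass the test, with a median log2 fold change of 0.14. In all 54.5% were called, beside 33.4% of all genes. CDT1, a licensing factor for replication origins, and MYBL2, a transcription factor of proliferating cells, rose with log2 fold changes of 0.59 and 0.45, while ORC1, of the origin recognition complex, fell by 0.65 on the log2 scale. Of 15 proliferation markers, 4 rose, 1 fell and 10 did not pass the test, with a median of 0.11, and the 33.3% called were close to the 33.4% of all genes. TOP2A, the topoisomerase of dividing cells, and TPX2, a spindle factor, had log2 fold changes of 0.37 and 0.23 and rose, and CDC20, an activator of the anaphase-promoting complex, fell by 0.34. The count of 5 markers moved to 1 without shCTRL replicate 2 or shCCN3 replicate 1. It was 2 without shCTRL replicate 3 and 3 without shCTRL replicate 1 or shCCN3 replicate 3. The count over all genes moved as well, from 5825 to 4181 without shCTRL replicate 2 and 4484 without shCCN3 replicate 1. In bulk RNA, a change in the share of cells in a phase and a change in mRNA per cell cannot be told apart.

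**Figure D3:**
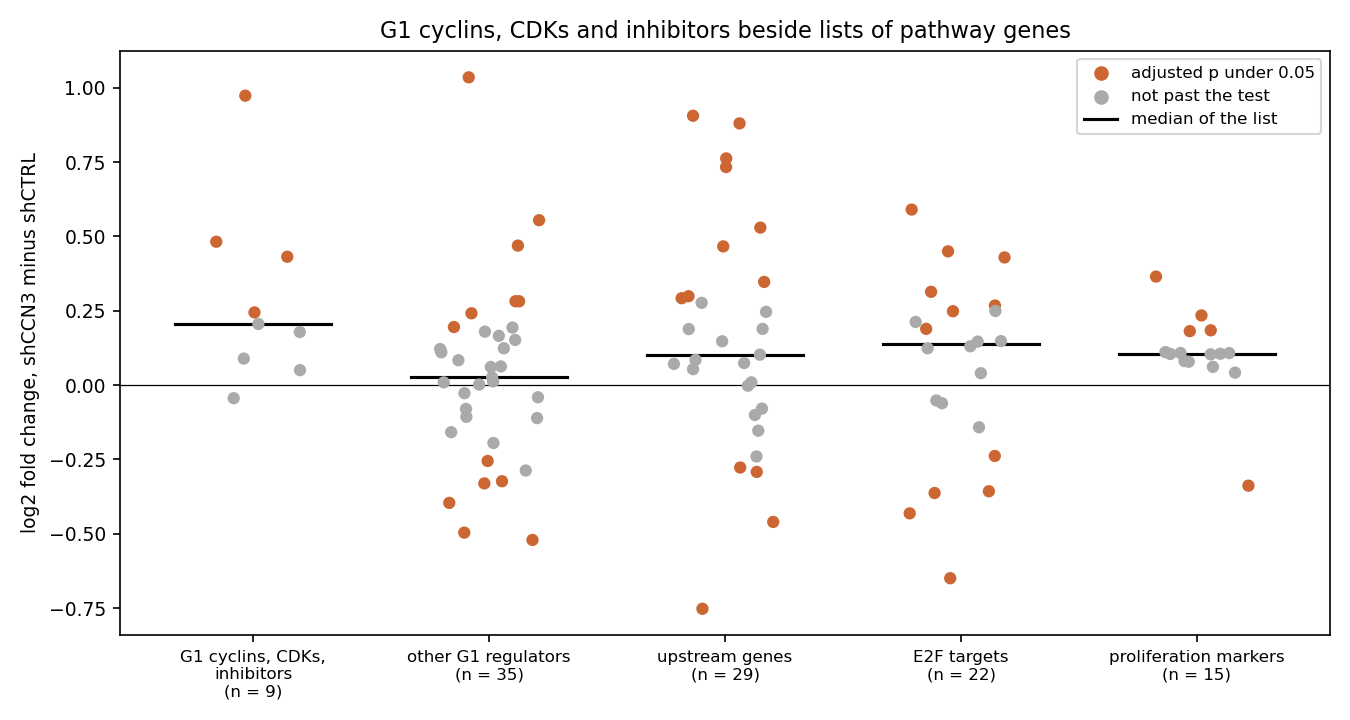
Log2 fold change (shCCN3 minus shCTRL) of every tested gene among the G1 cyclins, CDKs and inhibitors and in 4 lists of the pathway, in orange where the adjusted p from edgeR was under 0.05 and in gray otherwise. Horizontal bars are list medians, which lie between 0.03 and 0.21, and the highest point is CDKN2B at 1.03.

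The genes whose profiles over the 6 libraries were nearest to the 3 with the largest rise were read off by Euclidean distance of centred log2 CPM among 13632 genes with a mean of at least 1 CPM. Nearest to CDK6 were PLK2 (distance 0.08), PUM2 (0.08) and TNFAIP3 (0.09), with log2 fold changes of 1.00, 0.91 and 0.96. Nearest to CCNE1 were TMEM268 (0.13), BTN2A2 (0.15) and FAM225A (0.15), and nearest to CDKN1A were ZDHHC14 (0.05), EPHB2 (0.06) and TUBB (0.06). With 6 libraries in 2 groups, such nearness mostly reflects a like difference between the groups.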

How the data were processed

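Poly(A) RNA of 3 shCTRL and 3 shCCN3 samples was sequenced from stranded TruSeq libraries. The authors deposited raw read counts per gene, without normalization, for 46427 genes. The submitters' processing notes name Trimmomatic, HISAT2 2.1.0, StringTie, DESeq2 and GRCh38, without their order. The counting tool, its strand setting and the annotation were not given in the sources used here.

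The analysis used edgeR 4.0.16 (R 4.3.3), with TMM factors for CPM, its filter on low counts (17419 genes kept) and its quasi-likelihood F-test, with p-values adjusted over all genes tested by the Benjamini-Hochberg method. An adjusted p under 0.05 was called. Standard errors are the log2 fold change divided by the root of the F statistic. The script was tested on simulated data. Alternatives used other scaling and filters, DESeq2 1.42.0, limma-voom (limma 3.58.1), a replicate block and each library left out. Ratios were formed after adding 0.5 to both counts. Positions came from the RefSeq table of GRCh38.p14, to which 44698 Gene IDs matched, and exon lengths from GENCODE release 29.

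The 10 genes, the lists and the tests were chosen with earlier results of these data known. Besides the 10 genes, those named are the 3 with the largest change in each list among called genes with a mean of at least 1 CPM, the genes near CDKN2A, the genes of like profile, and CCN3, CDK2, RB1, E2F1 and MYC. Another gene and a list that belongs to it are not reported here. Cell type markers were named to check the label of the cells, whatever their change. The luminal markers were grouped by level, and PECAM1 and the genes with overlapping exons were singled out, after their values were seen.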

Additional observations from a re-analysis of the deposited data

How the results depend on the processing

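The 4 calls among the G1 genes held under each of the 7 alternatives that kept all libraries. That of CCND1 held narrowly with a replicate block (BH-adjusted p = 0.0494, edgeR). With each library left out in turn, between 3 and 4 were called, none of them lower, and CDK6 stayed between 0.92 and 1.05, CDKN1A between 0.41 and 0.45 and CCNE1 between 0.42 and 0.58. CCND1 stayed between 0.22 and 0.29 but had an adjusted p (edgeR) of 0.0512 without shCCN3 replicate 1. Without shCTRL replicate 2 or 3 it was 0.0441 or 0.0476. With a library left out, 7 to 22 other G1 regulators, 10 to 18 upstream regulators, 9 to 13 E2F targets and 1 to 7 proliferation markers were called. Among all genes, 4181 to 7229 were called in these fits. TOP2A (4 of the 6) and TPX2 (2 of the 6) each lost their call in some of them. The log2 fold change of CDKN2A ranged from -0.0153 without shCCN3 replicate 1 to 0.510 without shCTRL replicate 1, and that of RB1 became -0.00261 without shCTRL replicate 3 and -0.0257 without shCCN3 replicate 3. Replicate numbers are shared by the groups, but the deviations of same-numbered samples correlated at 0.0891, -0.0256 and -0.0657, so they were not treated as pairs. With a replicate block, 2 proliferation markers were called in place of 5, TPX2 being one of those lost. Among all genes, the number called moved from 5825 to 4887 in that fit. Of the 9 G1 genes tested, 4 were called as without the block. With the 50 nearest tested genes in place of 24, the median of the neighbours became -0.0224 for CCND1, -0.0948 for CCND2, 0.0199 for CCNE1 and 0.366 for CDKN1A. The cause of these changes was not tested. The 3 libraries per group and the low counts of CDKN2A limit what can be detected.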
